A study of Rattus norvegicus with 18 samples.

Results

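The genes described here encode the nuclear subunits of the mitochondrial respiratory chain, chosen by symbol: Ndufa, Ndufb, Ndufc, Ndufs and Ndufv genes for complex I, Sdha to Sdhd for complex II, Uqcr genes for complex III, Cox4 to Cox8 genes for complex IV and Atp5 genes for complex V. The astrocyte tables listed 82 such genes among 17307 and the microglia tables listed 80 among 17327. In astrocytes 76 were abundant enough to test among 11690 genes, of which 34 belonged to complex I, 4 to complex II, 8 to complex III, 13 to complex IV and 17 to complex V. In microglia 72 were tested among 10837 genes, with 32, 4, 8, 11 and 17 in complexes I to V. The same symbols were written in both kinds of table for 65 members, and 59 of these were tested in all 18 libraries. The symbols also caught Atp5s and Atp5sl, which are not subunits of the ATP synthase, and in the astrocyte tables its inhibitor Atp5if1, which the microglia tables write Atpif1 and the symbols miss there. They missed Ndufab1, Cyc1, Cycs and Usmg5, and the subunits encoded by mitochondrial DNA were not analysed.

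Complex I takes electrons from NADH and complex II from succinate, and both hand them to ubiquinone. Complex III passes them on to cytochrome c, and complex IV uses them to reduce oxygen to water. Complex V, the ATP synthase, uses the proton gradient that complexes I, III and IV build. Activated macrophages and microglia often shift ATP production from this chain towards glycolysis, and a message level does not measure respiration.

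Primary astrocytes and primary microglia were grown from the cortex of newborn rats, labelled wild type. Each cell type was left untreated as a control, or was exposed for 24 h to fibrils of the amyloid-β peptide Aβ42 or to fibrils of Aβ40. Each of the 6 groups had 3 libraries. Nothing in the labels says whether the replicates were separate cultures, so a p-value measures the spread between these libraries only, which may be technical. Gfap, the intermediate filament of astrocytes, measured 1219 to 3436 counts per 1e6 counts on genes, scaled (CPM) in the astrocyte libraries and 24.4 to 43.8 CPM in the microglia libraries. Cd68, a lysosomal protein of microglia and macrophages, measured 591 to 2586 CPM in the microglia libraries and 15.4 to 76.3 CPM in the astrocyte libraries. Both markers match the labelled cell types. In bulk RNA, fewer cells of a type and less RNA per cell cannot be told apart.

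Depth differed among libraries, with 3674043 to 19013919 counts on genes in astrocytes and 2271834 to 22274367 in microglia. A level of 3 counts, taken as the detection limit, equalled 0.161 to 0.835 CPM in astrocytes and 0.130 to 1.38 CPM in microglia. Intervals and detection limits cover counting error only. The members took 0.608% to 1.01% of the counts on genes.

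In astrocytes exposed to Aβ42 fibrils, few respiratory chain messages changed, and each of those that passed the test fell. The clearest decreases were in Uqcrh, the hinge subunit of complex III, and in Atp5mf, a small membrane subunit of the ATP synthase. Both fell to between about 0.5 and 0.65 of the control level. Of the core subunits named here, Sdha alone passed the test. Complex III was the one complex whose summed level lay below all controls in all treated libraries.

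Of the 76 members tested, 9 were called lower and 0 higher with Aβ42, while 20.4% of all genes tested were called lower and 16.5% higher. By complex, 3 members of complex I, 1 of II, 2 of III, 2 of IV and 1 of V were called lower. DESeq2 called 10 lower and 0 higher, and at an unadjusted p under 0.05 edgeR gave 14 lower and 0 higher. The median log2 fold change of the members was −0.13, compared with −0.005 for all genes tested, and 56 of the 76 values were negative. Summed over all members, the level was 10350, 7389 and 8958 CPM in control astrocytes and 7769, 8160 and 7991 CPM with Aβ42. The control libraries therefore spanned the treated ones, and the ratio of the means, 0.896, lay within the spread of the controls (SD 1481 CPM). Complex III summed to 1009, 839 and 888 CPM in control and 747, 795 and 788 CPM with Aβ42. Ratios for complexes I to V were 0.882, 0.892, 0.851, 0.892 and 0.927.

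Uqcrh measured 225, 239 and 132 CPM in the control libraries and 95.1, 102 and 107 CPM with Aβ42. The control libraries were all above the treated ones, with control 3 nearest to them. This gave a log2 fold change of −0.96 (SE 0.198, adjusted p 0.00283), and the call held with each of the 9 libraries left out in turn, over a range of −1.19 to −0.79. Atp5mf measured 220, 178 and 131 CPM in control and 111, 110 and 113 CPM with Aβ42. Again no treated library reached a control library. On the log2 scale the change was −0.66 (SE 0.166, adjusted p 0.00953), and it too was called with each library left out, at −0.84 to −0.45. Uqcrh and Atp5mf were the 2 of the 9 calls that held in every such fit.

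Sdha, the flavoprotein subunit of succinate dehydrogenase, measured 316, 279 and 270 CPM in control and 231, 226 and 238 CPM with Aβ42. All control libraries lay above all treated libraries. Sdha fell by 0.31 on the log2 scale (SE 0.106, adjusted p 0.0390), and the call was lost in 7 of 9 fits that left out a library (control 1, any Aβ42 or any Aβ40 library), with adjusted p up to 0.152. Ndufv3, an accessory subunit beside the NADH-binding site of complex I, measured 179, 188 and 142 CPM in control and 133, 121 and 115 CPM with Aβ42. The groups did not overlap, but control 3 was close to the highest treated library. Its log2 fold change was −0.47 (SE 0.141, adjusted p 0.0229), and leaving out control 1, Aβ42 library 2 or Aβ42 library 3 lost the call, with adjusted p up to 0.0855.

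Cox6c, a small nuclear-encoded subunit of complex IV, measured 199, 207 and 95.5 CPM in control and 81.5, 89.1 and 104 CPM with Aβ42. Control 3 lay inside the treated range, so the groups overlapped. The change was −0.86 on the log2 scale (adjusted p 0.0240) and was not called without control 1, Aβ42 library 1 or Aβ42 library 2, with adjusted p up to 0.105. Ndufb3, an accessory subunit of complex I, measured 94.3, 95.5 and 49.2 CPM in control and 49.6, 42.9 and 42.3 CPM with Aβ42. Here too control 3 fell among the treated libraries. The message changed by −0.81 on the log2 scale (adjusted p 0.0184), and the call was lost without control 1, Aβ42 library 2 or Aβ42 library 3, with adjusted p up to 0.0776. Cox6b2, the isoform of Cox6b1 best known from testis, measured 6.12, 4.31 and 5.28 CPM in control and 3.71, 1.92 and 2.76 CPM with Aβ42. All control libraries exceeded all treated ones at this low level. Cox6b2 fell by 0.87 on the log2 scale (adjusted p 0.0257), and 4 of 9 fits lost the call (without control 1, control 3, Aβ42 library 2 or Aβ42 library 3), with adjusted p up to 0.0971. Ndufa4l2, listed as an isoform of Ndufa4, was too low to test, with 10, 1 and 27 counts in control. From 38 summed counts in control and 9 with Aβ42, its depth-scaled ratio was 0.159 (95% counting interval 0.0675 to 0.334). With Aβ40 the ratio was 0.200 (0.102 to 0.372), from 15 counts.

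Among the core subunits, Ndufs1, which carries iron-sulfur clusters of complex I, measured 146, 198 and 164 CPM in control and 133, 154 and 162 CPM with Aβ42. The groups overlapped, with a log2 fold change of −0.18 (adjusted p 0.345). Cox4i1, the ubiquitous isoform of subunit 4 of complex IV, measured 245, 159 and 245 CPM in control and 233, 242 and 238 CPM with Aβ42. Control 2 was the low library, and the log2 fold change was 0.13 (adjusted p 0.558). Atp5f1a, the α subunit of the ATP synthase, measured 532, 314 and 629 CPM in control, again lowest in control 2, and its log2 fold change was 0.11 (adjusted p 0.712). Atp5f1b, the β subunit, had a log2 fold change of −0.14 (adjusted p 0.527), and Sdhb, the iron-sulfur subunit of complex II, 0.02 (adjusted p 0.936).

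The astrocyte controls were uneven. Control 2 lay below both other controls in 43 of the 76 members (56.6%), compared with 42.1% of all genes tested, and control 1 lay above both others in 46 (60.5%, compared with 26.0%). Control 2 was lowest in Uqcr11 (129, 21.1 and 107 CPM), in Cox8a (185, 54.1 and 131 CPM) and in Ndufv1 (139, 49.6 and 150 CPM). The summed level of complex V in the controls was 3417, 2165 and 3090 CPM. Leaving out control 2 raised the number called lower with Aβ42 from 9 to 26, and leaving out control 1 reduced it to 2. Without control 3 it was 16, without Aβ42 library 2 it was 3 and without Aβ42 library 3 it was 4. Control 2 also had the largest share of counts outside genes (34.3%, compared with 26.0% to 28.9% in the other astrocyte libraries).

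Messages of other cells moved in the same comparison. The summed level of 10 microglial markers was 445, 363 and 422 CPM in the control astrocytes and 80.0, 63.2 and 57.7 CPM with Aβ42, with 9 of 10 called lower and Cx3cr1 at 0 in Aβ42 libraries 2 and 3. Cd68, the most abundant of the 10, was the one not called, at −0.52 (adjusted p 0.124), and made up 56.0 of the 80.0 CPM in Aβ42 library 1. Oligodendrocyte lineage markers summed to 2635, 1753 and 2383 CPM in control and 1417, 1384 and 1302 CPM with Aβ42, with 5 of 9 called lower. Neuronal markers summed to 127, 170 and 142 CPM in control and 67.3, 64.0 and 55.6 CPM with Aβ42, with 5 of 6 called lower and Map2 the most abundant. The astrocyte markers themselves summed to 10220, 8524 and 8517 CPM in control and 5499, 5688 and 5765 CPM with Aβ42, with 5 of 8 called lower and 2 higher, Slc1a2 at 1.51 and Aldh1l1 at 1.65 on the log2 scale. Of the fibroblast markers Col1a1 and Col3a1 were called lower at −1.25 and −1.20 and Pdgfrb higher at 1.34, and of the endothelial markers Cdh5 was called lower at −2.52 and Flt1 higher at 0.94. The part these cells played in the decreases of the members was not tested.

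**Figure D1:**
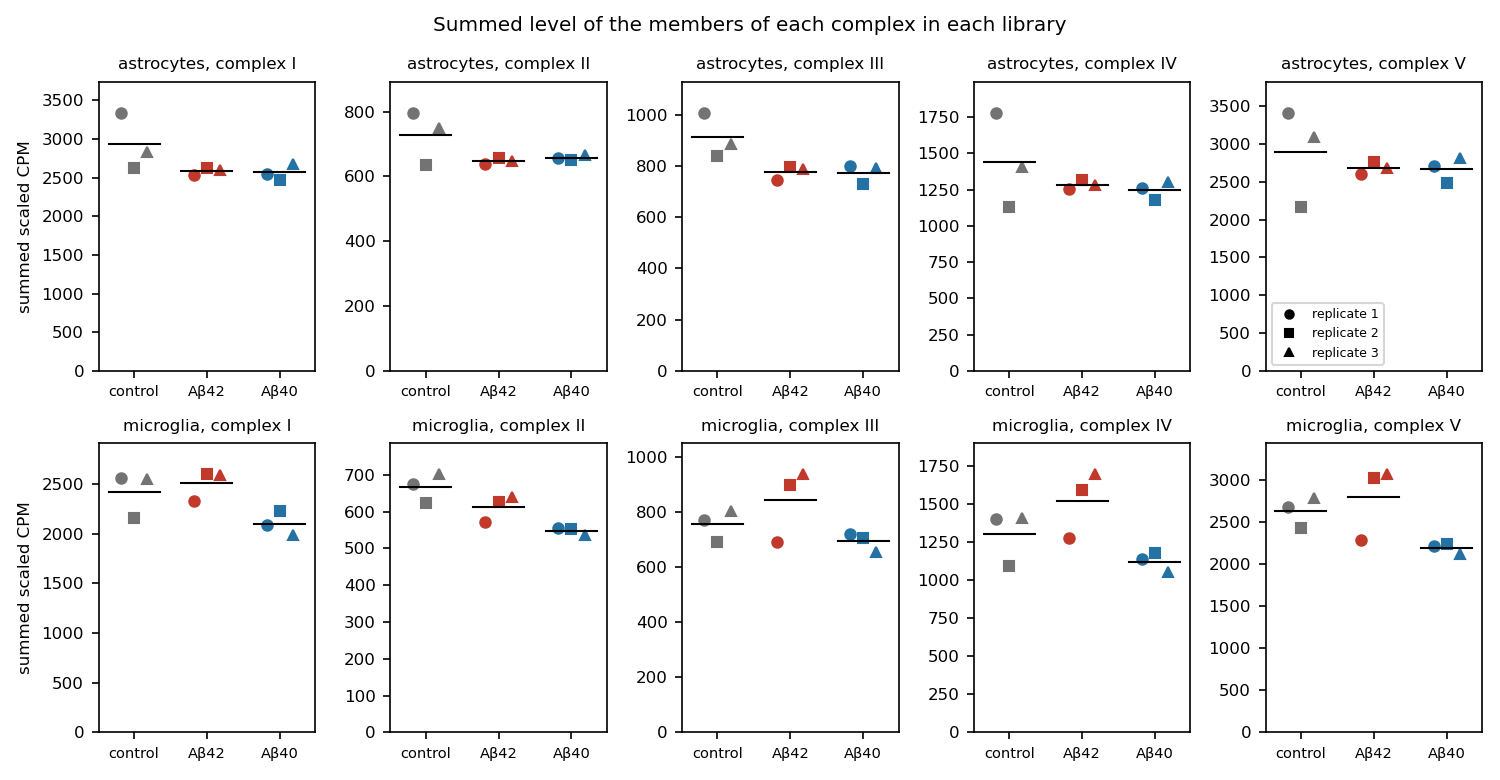
Summed CPM of the members of each complex (columns, I to V) in each library of astrocytes (top) and microglia (bottom), by treatment, with circles, squares and triangles for replicates 1, 2 and 3 and lines for group means. Complex V in control astrocytes spans 2165 to 3417 CPM, and in microglia with Aβ42 library 1 (2281 CPM) lies apart from libraries 2 and 3 (3027 and 3070 CPM).

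Aβ40 fibrils gave astrocytes much the same picture, with the same control libraries. Uqcrh, Cox6c, Ndufb3, Cox6b2, Ndufb4, Atp5mf and Ndufv3 were lower, and no member was higher. The largest decrease among those was in Uqcrh, to about 0.5 of control. Sdha and Uqcrb were lower in value but did not pass the test.

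With Aβ40, 7 of the 76 members were called lower and 0 higher, while 18.4% of all genes tested were called lower and 14.9% higher. The 7 were 3 members of complex I, 1 of III, 2 of IV and 1 of V. DESeq2 called 10 lower and 0 higher, and edgeR gave 14 lower and 0 higher at an unadjusted p under 0.05. The median log2 fold change of the members was −0.20, compared with 0.002 for all genes. Summed over all members, the libraries with Aβ40 measured 7966, 7511 and 8258 CPM, a ratio of 0.889 to control, and for complexes I to V the ratios were 0.876, 0.905, 0.849, 0.866 and 0.922. Leaving out control 2 raised the number called lower to 23, leaving out control 1 reduced it to 1, and it was 16 without control 3, 4 without Aβ40 library 1 and 2 without Aβ40 library 3.

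Uqcrh measured 106, 92.5 and 98.8 CPM with Aβ40, all below the lowest control library (132 CPM). The log2 fold change was −0.996 (SE 0.198, adjusted p 0.00255), and this was the single call of the 7 that held with each library left out, at −1.23 to −0.82. Atp5mf measured 112, 118 and 116 CPM with Aβ40, again below each control. This gave a log2 fold change of −0.61 (SE 0.166, adjusted p 0.0155), lost without control 1, Aβ40 library 1 or Aβ40 library 3, with adjusted p up to 0.0592. Cox6c measured 99.8, 70.6 and 89.1 CPM with Aβ40, where library 1 exceeded control 3. On the log2 scale the change was −0.94 (adjusted p 0.0170), lost without control 1, Aβ40 library 2 or Aβ40 library 3, with adjusted p up to 0.0776. Ndufb4, an accessory subunit of complex I, measured 148, 101 and 83.5 CPM in control and 65.4, 71.1 and 76.0 CPM with Aβ40. The groups did not overlap, and the log2 fold change of −0.64 (adjusted p 0.0225) was lost without control 1 or any Aβ40 library, with adjusted p up to 0.0823. With Aβ42 Ndufb4 measured 73.7, 75.8 and 74.7 CPM, also below all controls, and fell by 0.56 on the log2 scale (adjusted p 0.0368), lost without control 1 or any Aβ42 or Aβ40 library, with adjusted p up to 0.135.

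The other calls with Aβ40 were Ndufb3, Cox6b2 and Ndufv3. Ndufb3 measured 39.0, 51.0 and 46.8 CPM with Aβ40, where library 2 exceeded control 3, and fell by 0.79 on the log2 scale (adjusted p 0.0229), lost without control 1, Aβ40 library 1 or Aβ40 library 3 with adjusted p up to 0.0905. Cox6b2 measured 2.81, 3.26 and 2.46 CPM, below all controls, and fell by 0.87 (adjusted p 0.0251), lost without control 1, control 3, Aβ40 library 1 or Aβ40 library 3 with adjusted p up to 0.1003. Ndufv3 measured 113, 136 and 134 CPM, below all controls, and fell by 0.41 (adjusted p 0.0460), a call that held in the fit without control 3 alone, with adjusted p up to 0.169.

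Sdha measured 236, 247 and 240 CPM with Aβ40, below all controls, with a log2 fold change of −0.26 that did not pass the test (adjusted p 0.0870). Uqcrb, a subunit near the ubiquinone site of complex III, measured 35.3, 55.1 and 24.5 CPM in control, 20.5, 21.3 and 24.4 CPM with Aβ42 and 28.2, 19.95 and 20.5 CPM with Aβ40. Control 3 lay barely above the highest Aβ42 library and below Aβ40 library 1. Uqcrb fell by 0.77 on the log2 scale with Aβ42 (adjusted p 0.0415), lost in 7 of 9 fits (without control 1, control 2, any Aβ42 library, Aβ40 library 2 or Aβ40 library 3) with adjusted p up to 0.131, and by 0.73 with Aβ40, where it did not pass the test (adjusted p 0.0564). Ndufs6, a zinc-binding subunit needed for complex I assembly, measured 8.35, 3.83 and 1.76 CPM in control and 2.29, 1.07 and 1.20 CPM with Aβ40. The groups overlapped, and the log2 fold change of −1.44 did not pass the test (adjusted p 0.0754). The microglial marker sum fell as with Aβ42, to 32.5, 45.4 and 40.5 CPM with 10 of 10 called lower, and the oligodendrocyte sum to 1395, 1420 and 1392 CPM with 5 of 9 called lower. Neuronal markers summed to 68.2, 72.3 and 69.5 CPM with 4 of 6 called lower, and astrocyte markers to 6416, 6086 and 6260 CPM with 5 of 8 called lower and 3 higher. Col1a1 and Col3a1 were called lower at −0.68 and −0.56, Pdgfrb higher at 1.27 and Cdh5 lower at −3.85, and the part of all these was not tested.

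Between the 2 fibrils, no respiratory chain message passed the test in astrocytes. Each member lay close to the same level with Aβ42 and with Aβ40. Across the 76 members the log2 difference ran from −0.24 to 0.27, with a median of 0.02. The number called was 0 higher and 0 lower by edgeR, 0 and 0 by DESeq2, and 0 at an unadjusted p under 0.05. Over all genes tested, 0.0599% were called higher with Aβ42 and 0.0257% lower. Uqcrh, at 95.1 to 107 CPM with Aβ42 and 92.5 to 106 CPM with Aβ40, had a log2 difference of 0.03 (SE 0.196). Summed over all members, the ranges with Aβ42 (7769 to 8160 CPM) and Aβ40 (7511 to 8258 CPM) overlapped.

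Microglia responded to Aβ42 fibrils in both directions, with more subunits called higher than lower. The share called higher was about that of all genes, and the share called lower was smaller. Those called higher included Uqcr10 of complex III, Ndufa7 of complex I, Cox7c and Cox5a of complex IV and Atp5l of complex V. At the same time Sdha, Ndufs1 and Ndufv3 fell to between about 0.6 and 0.7 of control. In many of the members that rose, Aβ42 libraries 2 and 3 were high and library 1 stayed nearer to control.

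Of 72 members tested, 19 were called higher and 8 lower with Aβ42, while 27.1% of all genes tested were called higher and 26.6% lower. Those called higher were 7 of complex I, 1 of II, 2 of III, 3 of IV and 6 of V, and those called lower were 4 of complex I, 1 of II, 1 of III, 0 of IV and 2 of V. DESeq2 called 18 higher and 8 lower. The median log2 fold change was 0.20, compared with 0.01 for all genes, and by complex it was 0.08, 0.03, 0.35, 0.20 and 0.26 from I to V. The summed level of complex IV was 1403, 1095 and 1411 CPM in control and 1274, 1595 and 1697 CPM with Aβ42, a ratio of 1.17. For complex V it was 2676, 2432 and 2788 CPM in control and 2281, 3027 and 3070 CPM with Aβ42, a ratio of 1.06. In both sums Aβ42 libraries 2 and 3 exceeded every control and library 1 did not. Of the 27 calls, 15 held with each library left out in turn. Among these 15 were Atp5s and Atp5sl, which are counted with complex V by symbol but are not subunits of it. The number called higher was 36 without Aβ42 library 1, 12 without library 2 and 10 without library 3, and the number called lower was 5 without control 1, control 3, Aβ42 library 2 or Aβ42 library 3.

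Cox7c, the small subunit VIIc of complex IV, measured 68.3, 41.3 and 67.4 CPM in control and 87.6, 129 and 149 CPM with Aβ42. All treated libraries were above all controls, although library 1 was the lowest of them. The change was 1.06 on the log2 scale (SE 0.205, adjusted p 0.000976). Ndufa5, an accessory subunit of complex I, measured 48.5, 31.9 and 43.6 CPM in control and 59.6, 78.6 and 77.0 CPM with Aβ42. The groups did not overlap, and the log2 fold change was 0.81 (SE 0.165, adjusted p 0.00147).

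Uqcr10, a small transmembrane subunit of complex III, measured 16.3, 6.18 and 15.4 CPM in control and 17.99, 33.7 and 41.9 CPM with Aβ42. Library 1 with Aβ42 was little above the highest control, and control 2 was low. The message changed by 1.35 on the log2 scale (SE 0.306, adjusted p 0.00284), at 1.07 to 1.58 with each library left out. Ndufa7, an accessory subunit of complex I, measured 32.2, 18.9 and 32.8 CPM in control and 36.4, 77.6 and 85.1 CPM with Aβ42. The same library 1 was close to control, and the log2 fold change was 1.29 (SE 0.265, adjusted p 0.00152). Cox5a, a matrix-facing subunit of complex IV, measured 83.2, 68.8 and 86.5 CPM in control and 86.8, 171 and 186 CPM with Aβ42. Library 1 lay barely above control 3 and the other treated libraries far above it. Cox5a rose by 0.92 on the log2 scale (SE 0.226, adjusted p 0.00464), and it was called with each library left out at 0.73 to 1.15.

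Atp5l, subunit g of the ATP synthase membrane sector, measured 94.1, 73.8 and 94.7 CPM in control and 110, 151 and 156 CPM with Aβ42. No treated library fell within the control range. The log2 fold change was 0.68 (SE 0.155, adjusted p 0.00293). Among the 3 genes for subunit c of the rotor ring, Atp5g3 measured 98.2, 71.5 and 100 CPM in control and 101, 157 and 164 CPM with Aβ42, with library 1 just above the controls. This gave a log2 fold change of 0.66 (adjusted p 0.00823), compared with 0.59 for Atp5g1 (adjusted p 0.0278) and 0.08 for Atp5g2 (adjusted p 0.718). Atp5g3 was called with each library left out, whereas Atp5g1 was lost in 5 of 9 fits (without any control, Aβ42 library 2 or Aβ42 library 3), with adjusted p up to 0.116. Sdhc, a membrane anchor of complex II, measured 119, 121 and 130 CPM in control and 131, 167 and 171 CPM with Aβ42, with library 1 just above control 3. On the log2 scale the change was 0.35 (SE 0.113, adjusted p 0.0199), lost without control 1, Aβ42 library 2 or Aβ42 library 3 with adjusted p up to 0.0824.

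Sdha, in the same complex as Sdhc, went the other way. It measured 262, 252 and 275 CPM in control and 182, 167 and 169 CPM with Aβ42. All treated libraries, library 1 included, were below all controls. Sdha fell by 0.61 on the log2 scale (SE 0.0911, adjusted p 0.000143), at −0.65 to −0.56 with each library left out. Sdhb, which pairs with Sdha in the enzyme, stayed at 152, 152 and 171 CPM in control and 152, 151 and 155 CPM with Aβ42. The groups overlapped, and the log2 fold change was −0.05 (adjusted p 0.648).

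Ndufs1 measured 148, 148 and 153 CPM in control and 112, 106 and 99.4 CPM with Aβ42. No treated library came near the controls. The log2 fold change was −0.51 (SE 0.0924, adjusted p 0.000656), at −0.55 to −0.46 with each library left out. Ndufv3 measured 120, 111 and 119 CPM in control and 83.6, 67.5 and 60.6 CPM with Aβ42. The groups were again fully apart, and the log2 fold change was −0.75 (SE 0.120, adjusted p 0.000247), at −0.87 to −0.65. Uqcrc2, a core protein of complex III, measured 198, 228 and 216 CPM in control and 168, 164 and 156 CPM with Aβ42. Each treated library was lower, and the log2 fold change was −0.40 (SE 0.0969, adjusted p 0.00430), at −0.43 to −0.34. Its partner Uqcrc1 measured 138, 122.9 and 149 CPM in control and 136, 218 and 231 CPM with Aβ42, so that library 1 lay among the controls. The change was 0.53 on the log2 scale (adjusted p 0.0196), lost without control 2, Aβ42 library 2 or Aβ42 library 3 with adjusted p up to 0.0877.

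The remaining core subunits did not pass the test. Cox4i1 measured 280, 273 and 303 CPM in control and 238, 357 and 380 CPM with Aβ42. Libraries 2 and 3 were above every control and library 1 was below every control, and the log2 fold change was 0.20 (adjusted p 0.285). Atp5a1, the α subunit, measured 517, 525 and 553 CPM in control and 363, 544 and 545 CPM with Aβ42, with library 1 the lowest of the 6. The message changed by −0.13 on the log2 scale (adjusted p 0.4497). Atp5b, the β subunit, measured 807, 851 and 887 CPM in control and 741, 903 and 908 CPM with Aβ42, split in the same way. The fitted log2 fold change was 0.00 (adjusted p 0.972). Cox4i2, the lung-enriched and hypoxia-responsive isoform of Cox4i1, was too low to test in microglia alone, with 2, 3 and 2 counts in control and 11, 35 and 53 counts with Aβ42. Its level was 0.236, 0.580 and 0.305 CPM in control and 4.398, 1.52 and 3.02 CPM with Aβ42, higher in all treated libraries. The ratio of the summed counts, scaled for depth, was 6.63 (95% counting interval 3.10 to 16.9).

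Aβ42 library 1 stood apart from its group. It lay below both other Aβ42 libraries in 52 of the 72 members (72.2%), compared with 47.1% of all genes tested. In a comparison chosen after the values were seen, 59 of the 72 members (81.9%) in this library were nearer to the mean of the Aβ40 libraries than to the mean of Aβ42 libraries 2 and 3, as were 7644 of 10837 genes tested (70.5%). For Aβ42 library 2 the same share of members was 8.33%, and for library 3 it was 9.72%. For the microglia Aβ40 libraries the share nearer to the Aβ42 libraries was 11.1%, 22.2% and 6.94%. In astrocytes no member was called between the fibrils by edgeR or DESeq2. There the share nearer to the other fibril was 58 of 76 (76.3%) for Aβ42 library 1 and 60 of 76 (78.9%) for Aβ40 library 1. Of all genes tested it was 58.6% and 59.0%. The other treated astrocyte libraries had 51.3% to 56.6% of members. A high share thus also arose where the fibril groups hardly differed, so the astrocyte shares give no baseline for microglia. Library 1 had 2613723 counts on genes, Aβ42 libraries 2 and 3 had 22274367 and 17687416, and the Aβ40 libraries had 2271834 to 4425805, so depth moved with this split and its part was not tested. The label of library 1 was kept as given and is in doubt, since these data cannot check it, and the microglia values with Aβ42 rest on that label. Without library 1 the number of members called higher with Aβ42 rose from 19 to 36. Control 2 was also low, below both other controls in 61 of 72 members (84.7%, compared with 39.3% of all genes tested).

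**Figure D2:**
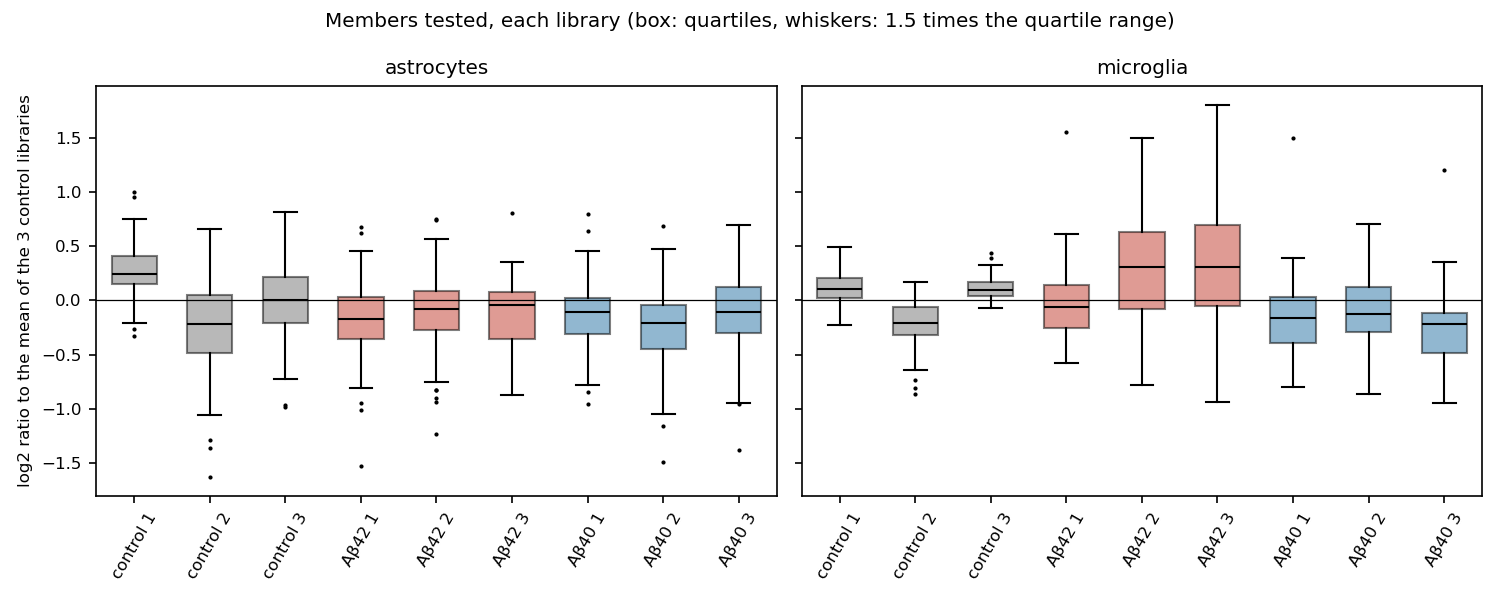
Log2 ratio of each tested member to the mean of the 3 control libraries of its cell type, for each library, with boxes for quartiles, lines for medians and whiskers to 1.5 times the quartile range. In microglia the medians of Aβ42 libraries 2 and 3 are 0.31 and 0.31, compared with −0.06 for Aβ42 library 1, and in astrocytes control 1 and control 2 sit at 0.25 and −0.22.

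Microglial marker genes moved in this comparison as well. The 10 markers summed to 7818, 7684 and 8920 CPM in control and 3170, 1960 and 2316 CPM with Aβ42, with 8 of 10 called lower and 1 higher. Csf1r, the receptor for colony-stimulating factor 1, fell from 2323 to 2745 CPM in control to 147 to 189 CPM with Aβ42, and P2ry12, a purinergic receptor of resting microglia, from 36.7 to 51.9 CPM to 0 to 0.798 CPM. Astrocyte markers summed to 195 to 219 CPM in control and 153 to 185 CPM with Aβ42, with Slc1a3 called lower at −1.84 and Sox9 and Gja1 called higher at 0.61 and 0.73. Oligodendrocyte lineage markers summed to 2063 to 2281 CPM in control and 2248 to 2948 CPM with Aβ42, with 5 of 9 called higher, Pdgfra called lower at −0.86 and Mbp the most abundant. Fibroblast markers summed to 72.0, 75.1 and 59.8 CPM in control and 138, 165 and 159 CPM with Aβ42, with Dcn, Lum and Col1a1 called higher at 7.11, 2.43 and 0.55, Pdgfrb called lower at −1.45 and Col1a1 the most abundant. Endothelial markers summed to 173, 162 and 167 CPM in control and 59.2, 34.99 and 45.3 CPM with Aβ42, with Flt1, the most abundant, and Pecam1 called lower at −2.12 and −1.28. Neuronal markers summed to 263, 248 and 260 CPM in control and 322, 286 and 263 CPM with Aβ42, with Tubb3, the most abundant, called higher at 0.47. Their part in the changes of the members was not tested.

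In microglia exposed to Aβ40 fibrils, more respiratory chain messages were called lower than higher, at about the share of all genes for those lower. Sdha, Ndufs1 and Ndufv3 were lower by nearly as much as with Aβ42, and the α and γ subunits of the ATP synthase fell as well. Cox7c, Cox5a and Uqcrc1, called higher with Aβ42, were not called with Aβ40.

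With Aβ40, 16 of the 72 members were called lower and 1 higher, while 21.4% of all genes tested were called lower and 19.6% higher. Those called lower were 9 of complex I, 1 of II, 0 of III, 2 of IV and 4 of V. The number called higher was 0 without any control or any Aβ40 library and 2 without Aβ42 library 1. DESeq2 called 17 lower and 2 higher, and at an unadjusted p under 0.05 edgeR gave 22 lower and 2 higher. The median log2 fold change was −0.17, compared with 0.005 for all genes. The summed level of complex I was 2556, 2163 and 2552 CPM in control and 2086, 2228 and 1983 CPM with Aβ40, where library 2 exceeded control 2. Complex II summed to 676, 624 and 703 CPM in control and 556, 553 and 536 CPM with Aβ40, and complex V to 2676, 2432 and 2788 CPM and 2215, 2240 and 2118 CPM. In these 2 complexes all Aβ40 libraries lay below all controls, with ratios of 0.821 and 0.832. The ratio was 0.866 for complex I, 0.919 for III and 0.861 for IV.

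Sdha measured 190, 185 and 186 CPM with Aβ40, below the lowest control (252 CPM). Sdha fell by 0.49 on the log2 scale (SE 0.0919, adjusted p 0.000965), at −0.50 to −0.44 with each library left out. Ndufv3 measured 75.3, 76.5 and 70.3 CPM with Aβ40, below all controls (111 CPM and above). Its log2 fold change was −0.65 (SE 0.123, adjusted p 0.00102), at −0.68 to −0.61. Ndufs1 measured 113, 109 and 105 CPM with Aβ40, again below all controls, which were at 148 CPM and above. This gave a log2 fold change of −0.46 (SE 0.094, adjusted p 0.00195), at −0.48 to −0.42.

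Atp5a1 measured 376, 387 and 348 CPM with Aβ40, far below its lowest control (517 CPM). On the log2 scale the change was −0.52 (SE 0.142, adjusted p 0.0112), and with Aβ42 library 1 measured 363 CPM, inside the Aβ40 range. Atp5c1, the γ subunit that turns within the ATP synthase, measured 150, 142 and 148 CPM in control and 117, 108 and 100 CPM with Aβ40. All treated libraries were lower, and the log2 fold change was −0.43 (SE 0.109, adjusted p 0.00762). Ndufs3, a core subunit of complex I, measured 57.6, 56.0 and 60.3 CPM in control and 40.5, 44.7 and 41.4 CPM with Aβ40. The groups were apart, and the log2 fold change was −0.46 (adjusted p 0.00534). Atp5a1, Atp5c1 and Ndufs3, with Sdha, Ndufv3, Ndufs1 and Atp5sl, were the 7 of 17 calls that held with each library left out. Atp5sl is counted with complex V by symbol but is not a subunit of it.

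Cox6a1, the widely expressed isoform of subunit VIa of complex IV, measured 238, 168 and 226 CPM in control and 169, 165 and 125 CPM with Aβ40, so that library 1 reached control 2. Its log2 fold change was −0.46 (adjusted p 0.0350), lost without control 1, control 3, Aβ40 library 2 or Aβ40 library 3 with adjusted p up to 0.167. Cox4i1 measured 233, 235 and 217 CPM with Aβ40, below all controls, but its log2 fold change of −0.32 did not pass the test (adjusted p 0.115). Atp5b measured 717, 725 and 723 CPM with Aβ40, below all controls, with a log2 fold change of −0.23 (adjusted p 0.0919). The number called lower rose from 16 to 28 without Aβ42 library 1, which is in neither group but in the fit, and fell to 9 without control 1 or control 3 and to 10 without Aβ40 library 1. The microglial marker sum was 2832, 2793 and 3438 CPM with Aβ40, with 9 of 10 called lower and 1 higher. Fibroblast markers summed to 121, 123.2 and 128 CPM, with Dcn and Lum called higher at 6.998 and 2.26 and Col3a1 and Pdgfrb called lower at −2.33 and −1.25, and endothelial markers to 92.2, 79.2 and 102.5 CPM, with Flt1 lower at −1.13 and Cdh5 higher at 1.69. Of the astrocyte markers Gja1, Aqp4 and Sox9 were called higher at 1.55, 1.07 and 0.71 and Slc1a3 lower at −1.91, and of the oligodendrocyte lineage markers 4 of 9 were called higher, among them Cspg4 at 1.47 and Olig2 at 0.79, and Pdgfra lower at −0.83. Neuronal markers summed to 263, 248 and 260 CPM in control and 329, 347 and 356 CPM with Aβ40, with Snap25 called higher at 1.01. Their part was not tested.

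**Figure D3:**
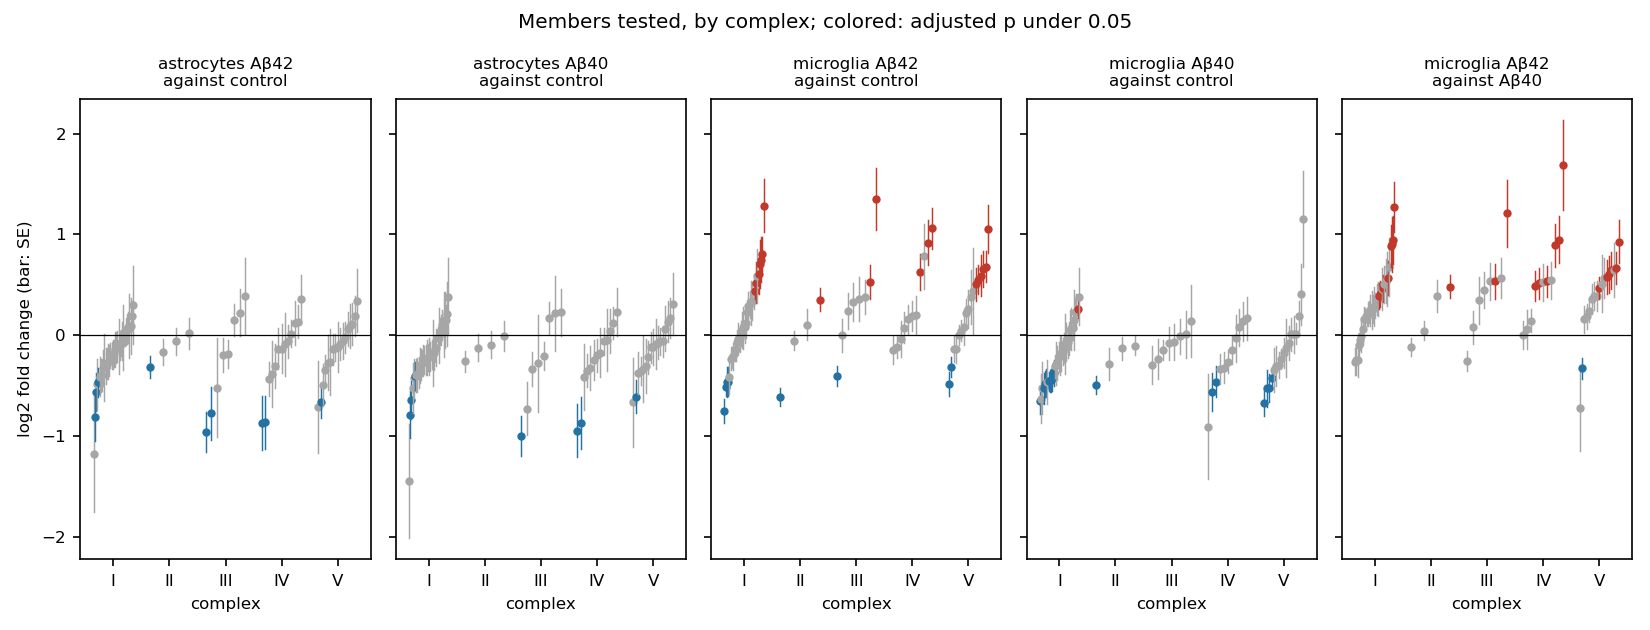
Log2 fold change of each tested member with its SE (bars), by complex, for the 4 comparisons of a fibril with control and for Aβ42 against Aβ40 in microglia, red for members called higher and blue for members called lower at an adjusted p under 0.05. Microglia have 19 members called higher with Aβ42 and 1 with Aβ40, and astrocytes have 0 with either fibril.

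Set against each other in microglia, the fibrils differed in a number of members that depended on the model and on single libraries. Those called higher with Aβ42 than with Aβ40 included Cox5a, Cox4i1, Sdhc and Atp5l, and Atp5h was the single member called lower. In Cox5a and Cox4i1, Aβ42 libraries 2 and 3 were high and Aβ42 library 1 lay near the Aβ40 libraries.

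Of the 72 members, 23 were called higher with Aβ42 than with Aβ40 and 1 lower, while 11.3% of all genes tested were called higher and 9.01% lower. The 23 were 8 members of complex I, 1 of II, 2 of III, 6 of IV and 6 of V. DESeq2 called 27 higher and 1 lower, a replicate block left 5 and 0, and a fit of the 2 fibril groups alone left 0 and 0 by edgeR, with 39 at an unadjusted p under 0.05. The median log2 difference was 0.39, compared with 0.01 for all genes, and 62 of 72 values were positive. The counts hung on single libraries: without Aβ42 library 1, 47 members were called higher and 7 lower, without Aβ42 library 2 the number called higher was 1, and without Aβ42 library 3 or any Aβ40 library it was 0, and without any library but Aβ42 library 1 the number called lower was 0. Without control 1 or control 3, which the shared fit also uses, 11 were called higher. None of the 24 calls held with every library left out. Markers of other cells differed in the same comparison: called lower with Aβ42 than with Aβ40 were Flt1 and Cdh5 of 3 endothelial markers tested at −0.99 and −1.47, Slc1a2, Aqp4 and Gja1 of 7 astrocyte markers at −1.61, −0.91 and −0.82, and Map2 of 5 neuronal markers at −0.90, and called higher were Col3a1 of 5 fibroblast markers at 1.70, Olig1 and Cspg4 of 9 oligodendrocyte lineage markers at 1.10 and 0.77, and Tmem119 of 10 microglial markers at 1.57. Their part was not tested.

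Ndufb6, an accessory subunit of complex I, measured 24.8, 49.5 and 47.2 CPM with Aβ42 and 15.9, 20.4 and 15.6 CPM with Aβ40. All Aβ42 libraries were higher, library 1 by the least. The log2 difference was 1.27 (SE 0.249, adjusted p 0.0138), lost without Aβ42 library 2, Aβ42 library 3 or any Aβ40 library, with adjusted p up to 0.0722. Cox5a measured 86.8, 171 and 186 CPM with Aβ42 and 77.5, 89.2 and 65.3 CPM with Aβ40, so that Aβ42 library 1 lay within the Aβ40 range. Its log2 difference was 0.95 (SE 0.231, adjusted p 0.0239), lost without the same libraries, with adjusted p up to 0.116. Sdhc measured 109, 117 and 112 CPM with Aβ40, below the Aβ42 range of 131 to 171 CPM. The log2 difference was 0.48 (adjusted p 0.0230), lost without the same libraries, with adjusted p up to 0.115. Atp5c1 measured 134, 164 and 154 CPM with Aβ42, above all Aβ40 libraries (100 to 117 CPM), with a log2 difference of 0.47 (adjusted p 0.0210), lost without the same libraries at adjusted p up to 0.0990.

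Cox4i1 measured 238, 357 and 380 CPM with Aβ42 and 233, 235 and 217 CPM with Aβ40, with Aβ42 library 1 beside the Aβ40 libraries. The log2 difference was 0.51 (SE 0.151, adjusted p 0.0369), and the call held in 1 of 9 fits that left out a library, the fit without Aβ42 library 1, with adjusted p up to 0.164 in the others. Cox6b2 measured 1.60, 3.34 and 3.08 CPM with Aβ42 and 0.724, 0.671 and 1.84 CPM with Aβ40. Aβ40 library 3 exceeded Aβ42 library 1 at this low level, and from 135 and 10 counts the depth-scaled ratio was 3.38 (95% counting interval 1.78 to 7.20). Its log2 difference was 1.69 (adjusted p 0.0293), lost without Aβ42 library 2, Aβ42 library 3 or any Aβ40 library with adjusted p up to 0.123. Atp5h, subunit d of the ATP synthase stalk, measured 127, 120 and 124 CPM with Aβ42 and 142, 152 and 172 CPM with Aβ40. All Aβ42 libraries, library 1 included, were lower. The log2 difference was −0.33 (adjusted p 0.0422), and the call likewise held in the fit without Aβ42 library 1 alone, with adjusted p up to 0.162. Sdha, lower than control with both fibrils, measured 182, 167 and 169 CPM with Aβ42 and 190, 185 and 186 CPM with Aβ40.

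**Figure D4:**
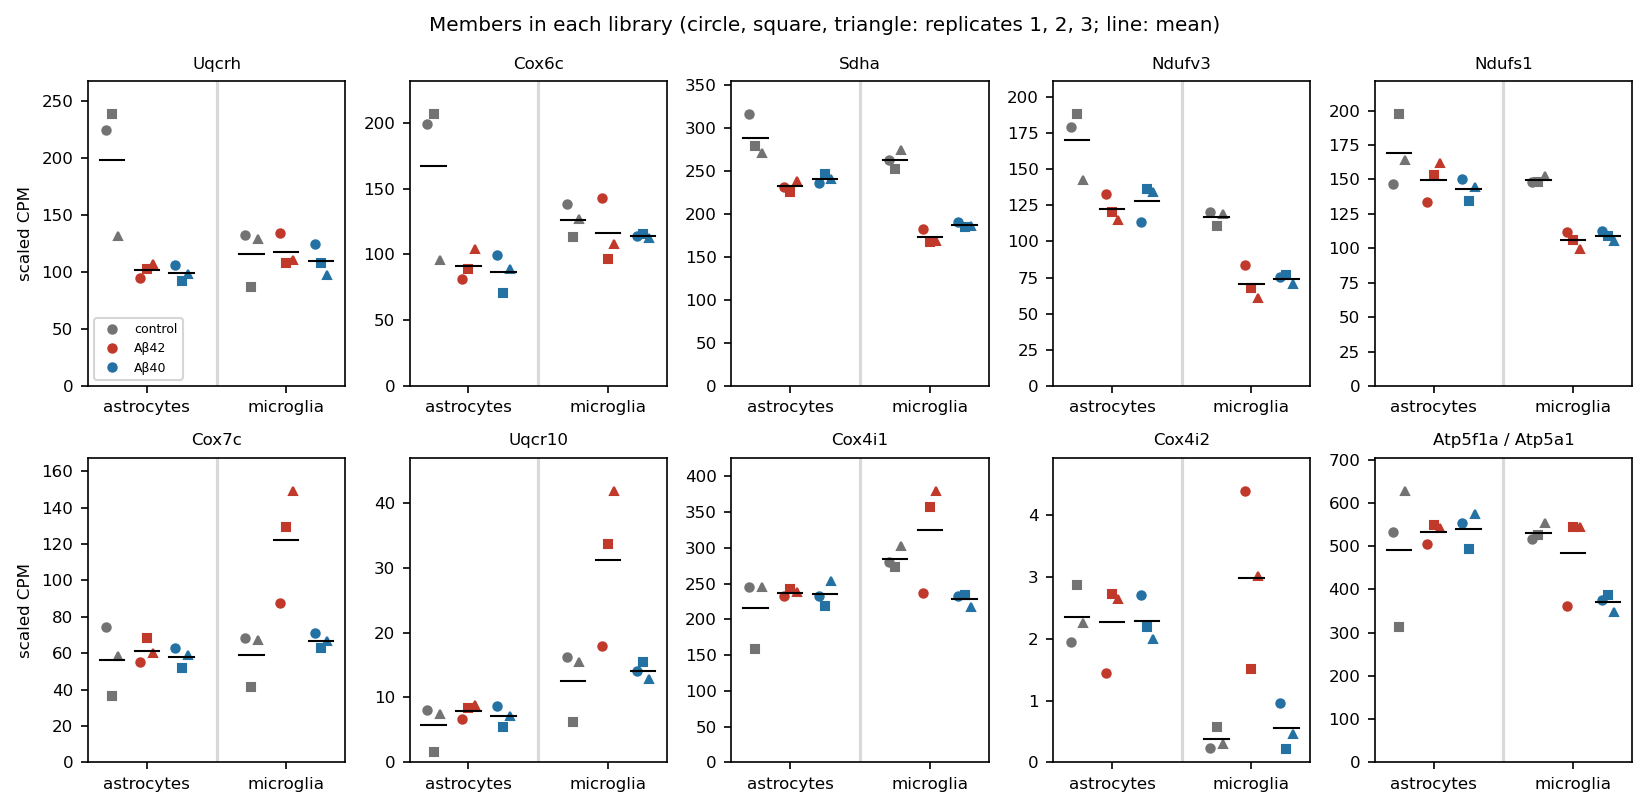
CPM of 10 members in each library of astrocytes (left of each panel) and microglia (right), gray for control, red for Aβ42 and blue for Aβ40, with circles, squares and triangles for replicates 1, 2 and 3 and lines for group means. Sdha falls from 252 to 275 CPM in control microglia to 167 to 190 CPM with either fibril, and Uqcrh falls in astrocytes but spans 86.9 to 134 CPM in all microglia groups.

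Untreated astrocytes and untreated microglia differed in particular subunits, in both directions. Astrocytes had more Ndufs6, Cox4i2, Cox6b2 and Ndufa10, and microglia had more Cox4i1 and Uqcr10, although those 2 calls were lost with a replicate block. Ndufs6 and Cox4i2 were too low to test in microglia alone, with at most 3 counts in each control microglia library. They passed the filter of this fit through other groups, so a call lower in astrocytes was hardly open to them. Of the 59 members tested, 11 were called higher in astrocytes and 13 lower, while 34.5% of all genes tested were called higher and 34.2% lower. The median log2 fold change was 0.003. Higher in astrocytes were 5 of complex I, 1 of II, 2 of III, 2 of IV and 1 of V, and lower were 6, 2, 2, 3 and 0. The call in complex V was Atp5s, which is not a subunit of it. These counts depended on scaling, with 19 higher and 3 lower by library totals and 17 and 4 by upper quartile factors, under which the median of all genes also moved, to 0.28 and 0.18. They depended on the model too, with 10 higher and 1 lower under a replicate block and 9 and 4 in a fit of the control groups alone. Markers of other cells differed in the same comparison. Called higher in astrocytes were 4 of 6 fibroblast, 4 of 9 oligodendrocyte lineage and 1 of 6 neuronal markers tested. Called lower were 3 of 3 endothelial, 3 of 9 oligodendrocyte lineage and 3 of 6 neuronal markers. Their part was not tested.

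Ndufs6 measured 7.85, 3.59 and 1.63 CPM in control astrocytes and 0.393, 0.216 and 0 CPM in control microglia on a common scale. All astrocyte libraries were higher, and from 71 and 4 counts the ratio was 13.7 (95% counting interval 5.11 to 51.5). The fitted log2 fold change was 3.97 (adjusted p 0.000271). Cox4i2 measured 1.83, 2.70 and 2.08 CPM in astrocytes and 0.262, 0.648 and 0.337 CPM in microglia. These microglia values were 2, 3 and 2 counts, also at or below that limit. The groups did not overlap, and from 51 and 7 counts the ratio was 5.61 (95% counting interval 2.53 to 14.7), with an adjusted p of 0.000844. Cox4i1, the other isoform, measured 230, 149 and 227 CPM in astrocytes and 312, 305 and 335 CPM in microglia. All astrocyte libraries were lower, with a log2 fold change of −0.65 (SE 0.168, adjusted p 0.00213), and the call held with each of the 18 libraries left out but was lost with a replicate block, at an adjusted p of 0.0696.

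Ndufa10, an accessory subunit of the complex I membrane arm, measured 16.5, 11.2 and 8.39 CPM in astrocytes and 3.80, 5.18 and 4.72 CPM in microglia. The groups were apart, with a log2 fold change of 1.35 (SE 0.284, adjusted p 0.000328). Ndufs3 measured 120, 85.3 and 97.1 CPM in astrocytes and 64.1, 62.6 and 66.6 CPM in microglia, higher in all astrocyte libraries. The change was 0.64 on the log2 scale (SE 0.129, adjusted p 0.000198). Uqcr10 measured 7.59, 1.57 and 6.96 CPM in astrocytes and 18.1, 6.91 and 17.0 CPM in microglia. Control 2 was the low library in each cell type and the groups overlapped there. The message changed by −1.34 on the log2 scale (SE 0.399, adjusted p 0.00598), and this call too was lost with a replicate block, at an adjusted p of 0.0670. The number called lower was 8 without astrocyte control 2, control 3, Aβ40 library 1 or Aβ40 library 3, and 7 without microglia control 1 or control 3. Of the 24 calls, 12 held with each library left out. Of these, 8, among them Ndufs6, Cox4i2, Cox6b2, Ndufa10 and Ndufs3, also held under every other setting that tested them. Ndufs6, Cox4i2 and Cox6b2 had libraries with fewer than 10 counts, so the filter of at least 10 counts in each library did not test them. After joining symbols through RefSeq synonyms, an alternative chosen after seeing the data, 12 members were called higher and 16 lower. The added calls were in complex V, led by Atp5pd (Atp5h in microglia), subunit d, at 118, 86.6 and 98.4 CPM in astrocytes and 171, 161 and 168 CPM in microglia. All astrocyte libraries were lower, with a log2 fold change of −0.73 (adjusted p 1.83e-05).

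**Figure D5:**
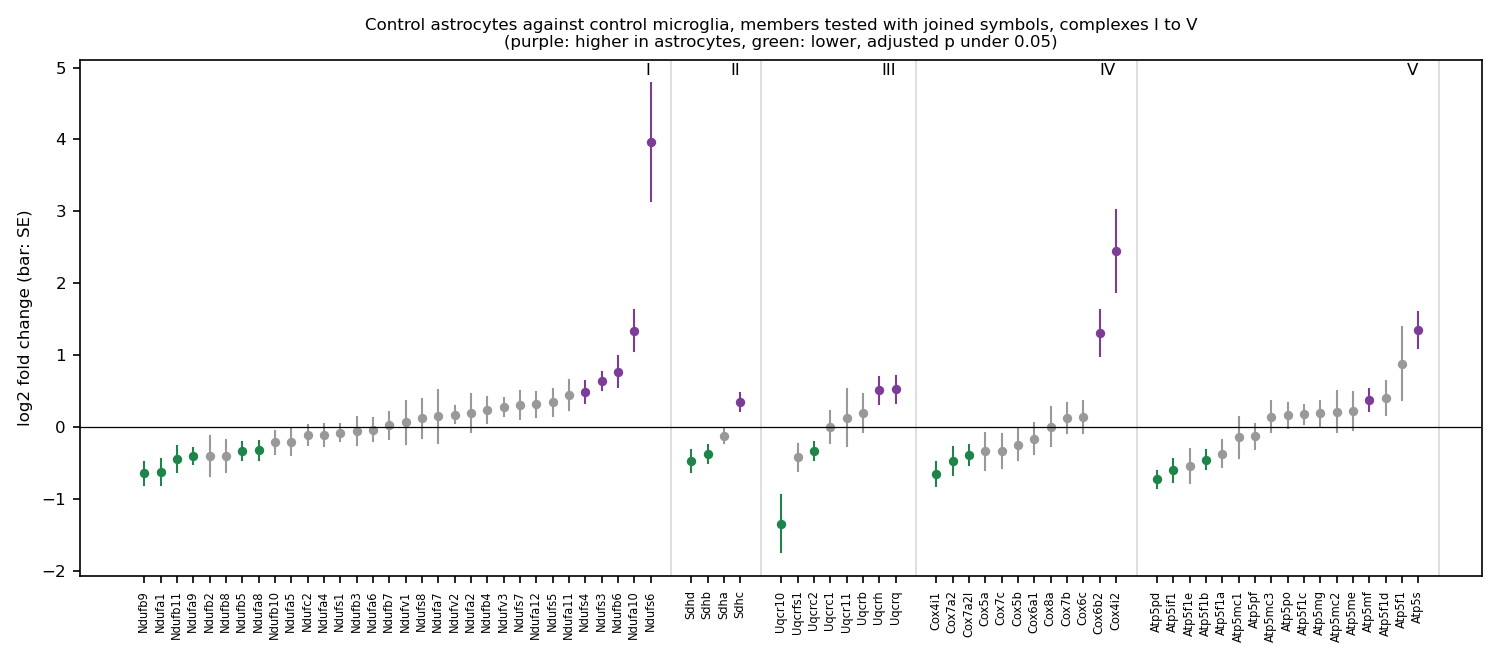
Log2 fold change of control astrocytes over control microglia for 73 of the 74 members tested after joining symbols, with SE bars, ordered within complexes I to V, purple for members called higher in astrocytes and green for members called lower. Ndufs6 and Cox4i2, both with at most 3 counts in each control microglia library, are the highest values, at 3.96 and 2.45. Uqcr10 is the lowest at −1.34.

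The response to Aβ42 differed between the cell types in some members, and those called were all higher in microglia relative to astrocytes. The share called higher was about that of all genes, and the share called lower was smaller, with no member called by edgeR. Among the members called, the difference was largest for Cox4i2 and Cox6b2, and it was present for Uqcrh, which was called lower in astrocytes alone. For Aβ40 the cell types differed in few members.

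In a test of the difference itself, 12 of 59 members had a higher Aβ42 response in microglia than in astrocytes and 0 a lower one, while 19.3% of all genes tested were called higher and 17.9% lower. DESeq2 called 18 higher and 1 lower, and edgeR gave 18 higher and 1 lower at an unadjusted p under 0.05. The median difference was 0.41 on the log2 scale, compared with 0.04 for all genes. The number was 22 without microglia Aβ42 library 1, 20 without astrocyte control 2, 7 without astrocyte Aβ42 library 1 or microglia Aβ42 library 2, 5 without microglia control 2 and 4 without microglia Aβ42 library 3. Cox4i2 in astrocytes measured 1.95, 2.87 and 2.25 CPM in control and 1.44, 2.73 and 2.64 CPM with Aβ42, with overlapping groups. In microglia it rose, with a depth-scaled ratio of 6.63 from 7 counts in control and 99 with Aβ42. Each control microglia library was at or below the detection limit. The difference between the cell types was 2.88 (SE 0.670, adjusted p 0.00221). Uqcrh in microglia measured 133, 86.9 and 129 CPM in control and 134, 108 and 110 CPM with Aβ42, with overlapping groups. Its difference was 0.96 (SE 0.271, adjusted p 0.00900). Uqcrh, Cox4i2 and Cox6b2 were among the 4 of the 12 called with each library left out.

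For Aβ40 the difference was called higher in microglia for 2 members and lower for 2, while 16.0% of all genes tested were called higher and 16.5% lower. DESeq2 called 6 higher and 2 lower. The number higher was 6 without astrocyte control 3, 4 without astrocyte Aβ40 library 1 and 1 without microglia Aβ40 library 1, and the number lower stayed at 2 without microglia Aβ42 library 1, Aβ42 library 2 or Aβ40 library 2 and was 0 or 1 without any other library. Ndufb3 in microglia measured 75.5, 55.1 and 74.6 CPM in control and 79.6, 84.3 and 76.8 CPM with Aβ40, slightly above all controls, whereas it fell in astrocytes. The difference was 1.0015 (SE 0.279, adjusted p 0.00946), and it was called with each library left out. Uqcrh had a difference of 0.90 (adjusted p 0.0159), lost only without microglia Aβ40 library 1, at an adjusted p of 0.0521. Ndufa8 and Ndufa9, accessory subunits of complex I, had differences of −0.53 (adjusted p 0.0404) and −0.44 (adjusted p 0.0479), lost in 8 and 14 of the 18 fits that left out a library, with adjusted p up to 0.103 and 0.114. In microglia Ndufa9 measured 120, 122.5 and 124 CPM in control and 84.0, 96.8 and 87.8 CPM with Aβ40, fully apart, and in astrocytes 111, 110 and 110 CPM and 107, 105 and 115 CPM, overlapping.

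Promoters of the members were searched for 6 short sites of factors that can drive nuclear genes of the chain, and each site was absent from most of them. NRF1 binds GCATGCGC, ETS factors such as GABP bind CCGGAAG, YY1 binds AAGATGGCG, Sp1 binds GGGCGG, estrogen-related receptors bind TCAAGGTCA and NF-Y binds CCAAT, each searched on both strands from 250 bases before to 50 bases after the RefSeq transcription start. Of 71 members with a promoter, 9 (12.7%) had the NRF1 site, compared with 2.66% of 27457 promoters of all genes. The ETS site occurred in 20 (28.2%, compared with 9.22%), the YY1 site in 10 (14.1%, compared with 1.93%), the Sp1 site in 30 (42.3%, compared with 34.9%), the estrogen-related receptor site in 2 (2.82%, compared with 0.412%) and CCAAT in 24 (33.8%, compared with 37.7%). Promoters of Atp5pd, Cox4i2, Cox6a1, Cox6c, Cox6c-ps1, Dmac2, Ndufa10l1, Ndufa8, Ndufb9, Uqcr11 and Uqcrb were not among those available. A match describes the sequence and does not show that a factor binds it. Among members called higher in microglia with Aβ42, 3 of 18 had the ETS site, 3 the NRF1 site, 3 the YY1 site, 6 the Sp1 site, 1 the estrogen-related receptor site and 4 CCAAT, and among members not called 14 of 40, 5, 6, 18, 1 and 14 did. Among 5 members called lower in microglia with Aβ42, 2 had the ETS site, 1 the Sp1 site and 2 CCAAT. Among 7 members called lower in astrocytes with Aβ42, 1 had the ETS site, 1 the YY1 site, 2 the Sp1 site and 5 CCAAT, and among 60 not called 19, 9, 25 and 17 did, with the NRF1 site in 0 and 8 and the estrogen-related receptor site in 0 and 2.

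Sequences from 90 bases before to 30 bases after the start follow, from RefSeq on the rat build GRCr8, written along the gene's strand in lower case with NRF1, ETS, YY1 and Sp1 sites in capitals. Uqcrh, lower in astrocytes, lies on the minus strand at chr5:134790853-134790972. Cox4i1 lies on the plus strand at chr19:65630293-65630412. In microglia it was called higher with Aβ42 than with Aβ40, a call lost in most fits that left out a library. Cox5a, higher with Aβ42 in microglia, lies on the plus strand at chr8:66818194-66818313. Sdhc, also called higher but not with every library left out, lies on the minus strand at chr13:86097996-86098115. Ndufv3, lower with both fibrils in microglia, lies on the plus strand at chr20:9613696-9613815. Uqcrc2, lower with Aβ42, lies on the plus strand at chr1:184599150-184599269.
Uqcrh: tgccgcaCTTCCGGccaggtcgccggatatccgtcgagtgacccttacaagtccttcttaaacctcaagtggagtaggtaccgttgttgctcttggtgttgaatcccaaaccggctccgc
Cox4i1: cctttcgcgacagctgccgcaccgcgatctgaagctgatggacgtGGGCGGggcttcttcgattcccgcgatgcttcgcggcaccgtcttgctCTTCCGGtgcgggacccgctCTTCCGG
Cox5a: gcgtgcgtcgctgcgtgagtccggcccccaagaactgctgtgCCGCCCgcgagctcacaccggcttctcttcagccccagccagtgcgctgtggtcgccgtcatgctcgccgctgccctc
Sdhc: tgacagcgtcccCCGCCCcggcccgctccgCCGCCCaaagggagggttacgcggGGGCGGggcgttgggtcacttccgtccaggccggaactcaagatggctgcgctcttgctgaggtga
Ndufv3: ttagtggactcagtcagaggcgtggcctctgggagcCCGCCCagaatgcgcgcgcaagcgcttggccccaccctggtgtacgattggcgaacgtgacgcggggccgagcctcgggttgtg
Uqcrc2: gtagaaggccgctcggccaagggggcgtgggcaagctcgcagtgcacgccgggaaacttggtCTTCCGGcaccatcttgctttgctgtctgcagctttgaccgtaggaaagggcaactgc

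Genes of glycolysis, the citric acid cycle and pyruvate entry also changed. The counts below stand beside 27.1% of all genes called higher and 26.6% lower in microglia with Aβ42, 19.6% and 21.4% with Aβ40, 16.5% and 20.4% in astrocytes with Aβ42, and 14.9% and 18.4% with Aβ40. Of 19 glycolysis genes tested, 16 were called higher and 0 lower with Aβ42 in microglia, and 13 higher and 1 lower with Aβ40, with median log2 fold changes of 1.13 and 0.73. The 16 were called by edgeR, which also gave 16 genes at an unadjusted p under 0.05. Slc2a1, the glucose transporter GLUT1, rose by 3.27 on the log2 scale with Aβ42 (adjusted p 7.00e-10) and by 2.91 with Aβ40 (adjusted p 1.62e-09). In astrocytes 4 glycolysis genes were called higher and 2 lower with Aβ42, and 4 and 4 with Aβ40. The smallest p belonged to the lactate transporter gene Slc16a1 among those higher, at 1.56 and 1.65, and to Pfkm among those lower, at −1.16 and −0.87, while Slc16a3 rose further, by 2.86 and 2.56, and Aldoc fell further, at −1.26 and −0.99. Of 13 genes of the citric acid cycle, 0 were called higher and 7 lower with Aβ42 in microglia, and 0 and 5 with Aβ40, and 8 had an unadjusted p under 0.05 in each comparison. Idh2, mitochondrial isocitrate dehydrogenase, had log2 fold changes of −1.65 and −1.57. In astrocytes 2 of the 13 were called lower with each fibril, among them Idh3g at −0.56 and −0.50. Among genes for pyruvate entry, 3 of 11 were higher and 3 lower with Aβ42 in microglia, 2 and 4 with Aβ40, and in astrocytes 3 and 3 of 12, and 2 and 2. Pdk2, a kinase that shuts off pyruvate dehydrogenase, was lower in all 4 comparisons, at −0.75 and −0.73 in microglia and −0.89 and −0.75 in astrocytes.

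Several mitochondrial genes of the inflammatory response rose steeply. Sod2, the manganese superoxide dismutase, measured 93.5, 81.4 and 97.6 CPM in control astrocytes, 1912, 2071 and 2023 CPM with Aβ42 and 1878, 1643 and 1848 CPM with Aβ40. Each treated library was far above the controls, with log2 fold changes of 4.46 (adjusted p 2.93e-09) and 4.30. In microglia Sod2 measured 543, 457 and 480 CPM in control, 2549, 2297 and 2592 CPM with Aβ42 and 2151, 2139 and 2387 CPM with Aβ40, a rise of 2.33 and 2.17 on the log2 scale. Irg1, named Acod1 in the astrocyte tables, makes itaconate, which inhibits succinate dehydrogenase. It measured 9.07, 7.15 and 4.58 CPM in control microglia, 460, 441 and 498 CPM with Aβ42 and 434, 438 and 416 CPM with Aβ40, and in astrocytes 0.278, 0.239 and 0.281 CPM in control and 16.9, 17.0 and 16.9 CPM with Aβ42. Nos2, the inducible nitric oxide synthase, whose product competes with oxygen at complex IV, measured 45.0, 39.2 and 19.98 CPM in control microglia, 1453, 454 and 575 CPM with Aβ42 and 1303, 1194 and 1601 CPM with Aβ40. Aβ42 library 1 was again at the level of the Aβ40 libraries. In astrocytes Nos2 measured 0.835, 1.92 and 0.422 CPM in control, 573, 563 and 526 CPM with Aβ42 and 316, 341 and 328 CPM with Aβ40. Ucp2, an uncoupling protein, fell in both cell types, with log2 fold changes of −1.99 and −1.67 in astrocytes and −1.02 and −0.83 in microglia. Across the 8 genes of this list tested, 4 were higher and 1 lower with each fibril in astrocytes, and in microglia 4 higher and 2 lower with Aβ42 and 4 and 3 with Aβ40.

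The regulators of mitochondrial gene expression were split. Esrra, the estrogen-related receptor α, measured 28.5, 28.6 and 26.1 CPM in control microglia, 48.4, 130 and 139 CPM with Aβ42 and 53.6, 51.2 and 46.0 CPM with Aβ40. All treated libraries were above the controls, and Aβ42 library 1 lay among the Aβ40 libraries. Esrra rose by 1.98 on the log2 scale with Aβ42 (adjusted p 0.000108) and by 0.87 with Aβ40 (adjusted p 0.0358). Ppargc1b, a coactivator of Esrra, measured 5.89, 5.22 and 6.41 CPM in control microglia, 0.800, 0.866 and 0.855 CPM with Aβ42 and 0.483, 1.57 and 0 CPM with Aβ40. Each treated library was lower, with log2 fold changes of −2.75 and −2.80. Of 20 regulators tested in microglia, 4 were higher and 4 lower with Aβ42 and 3 and 3 with Aβ40, and of 19 in astrocytes 2 were higher and 1 lower with Aβ42 and 3 higher and 0 lower with Aβ40, where edgeR gave 6 genes at an unadjusted p under 0.05. In astrocytes Nfe2l2, the regulator of oxidative stress genes, rose by 1.23 and 1.01 on the log2 scale, whereas in microglia it was called lower, at −0.56 and −0.48. Cyc1, the cytochrome c1 subunit of complex III that the symbol rule leaves out, measured 56.2, 53.3 and 61.6 CPM in control microglia and 56.8, 120 and 132 CPM with Aβ42, with library 1 inside the control range, and its log2 fold change was 0.89 (adjusted p 0.00580). Cycs, cytochrome c itself, rose in microglia by 0.50 with Aβ42 and 0.78 with Aβ40, and none of the 4 left-out genes tested in astrocytes was called with either fibril by edgeR, where 0 and 2 had an unadjusted p under 0.05.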

How the data were processed

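RNA from primary rat astrocytes and microglia was sequenced as 18 stranded mRNA libraries. The authors aligned the reads to the rat build rn5 with STAR and name Salmon and DESeq2 for quantification, and the deposited values are whole-number counts per gene symbol. Counts outside genes (21.7% to 34.3% of each library) were left out, and counts on genes numbered 2271834 to 22274367. Groups were cell type by treatment, with 3 libraries each. In R 4.3.3, edgeR 4.0.16 (TMM factors, filterByExpr by group, quasi-likelihood F test) fitted each cell type, or all 18 libraries for comparisons between cell types, with Benjamini-Hochberg adjustment over all genes tested and calls at 0.05. The SE is the absolute log2 fold change divided by the square root of F. CPM are scaled by TMM.

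Members and lists were chosen with earlier results of these data known. Lists cover cell type markers, genes the symbols leave out, assembly factors, the citric acid cycle, pyruvate entry, glycolysis, regulators, mitochondrial and cytosolic ribosomes, protein import, ubiquinone synthesis, carriers and inflammatory mitochondrial genes. Genes named are, per comparison and complex, the 2 called with the smallest p in each direction, the highest and lowest fold change against control, isoform pairs, 10 core subunits, the called gene of each list with the smallest p per direction, and the inflammatory list, leaving out genes whose values add little. Alternatives were DESeq2 1.42.0 (test and size factors), library totals, upper quartile factors, no filter, at least 10 counts in each library, a replicate block, the compared groups alone, Ndufa4 counted with complex IV, each complex without its most abundant member, 2 astrocyte libraries left out, each library left out, and, added after seeing the data, joined symbols.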

Additional observations from a re-analysis of the deposited data

Results flagged for a closer look

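The members below responded differently in the 2 cell types by a test of that difference (log2 fold change in microglia minus that in astrocytes, adjusted p under 0.05). With Aβ42 the differences were 2.88 for Cox4i2, 1.65 for Cox6b2, 1.18 for Ndufa10, 1.13 for Uqcrb, 0.96 for Uqcrh, 0.935 for Cox7c, 0.85 for Ndufb6, 0.84 for Atp5s, 0.83 for Ndufa11, 0.78 for Ndufb3 and 0.51 for Sdhc. With Aβ40 they were 1.0015 for Ndufb3, 0.90 for Uqcrh, −0.53 for Ndufa8 and −0.44 for Ndufa9. Of these 15, Cox4i2, Cox6b2 and Uqcrh with Aβ42 and Ndufb3 with Aβ40 were called with each of the 18 libraries left out. Each treatment effect rests on 3 libraries per group.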

How the results depend on the processing

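Counts of members called, higher then lower, moved by over 1.5 times as follows, and the cause was not tested. With upper quartile factors 14 and 14 were lower in astrocytes with Aβ42 and Aβ40, the control comparison gave 17 and 4, the Aβ42 response difference 20 higher and the Aβ40 difference 5 and 0. Library totals gave 19 and 3 for the controls and 5 and 0 for the Aβ40 difference, and DESeq2 size factors 5 and 0 for the latter. The DESeq2 test gave 2 higher in microglia with Aβ40, 1 lower for the Aβ42 difference and 6 higher for the Aβ40 difference. Without a filter, 0 were higher in microglia with Aβ40 and 0 lower with Aβ42 against Aβ40. With at least 10 counts in each library, 5 were lower in the control comparison and 0 for the Aβ40 difference. A replicate block gave 4 lower in astrocytes with Aβ42, 5 and 0 in microglia with Aβ42 against Aβ40, 1 lower for the controls, 6 higher for the Aβ42 difference and 0 lower for the Aβ40 difference. With the compared groups alone, 4 and 4 were lower in astrocytes with Aβ42 and Aβ40, 2 and 27 in microglia with Aβ40, 0 and 0 with Aβ42 against Aβ40, 4 lower for the controls, 6 higher for the Aβ42 difference and 1 lower for the Aβ40 difference. Without astrocyte control 2 and Aβ42 library 3, named in another pattern, 20 and 22 were lower in astrocytes, 19 and 8 were called between controls and 26 higher for the Aβ42 difference. Without its most abundant member, complex II had ratios in microglia of 1.09 (Aβ42 to control), 0.893 (Aβ40 to control) and 1.22 (Aβ42 to Aβ40). With each library left out in turn, the number lower in astrocytes ran from 2 (without control 1) to 26 (without control 2) with Aβ42 and from 1 to 23 with Aβ40, for the same libraries. In microglia 10 to 36 were higher and 5 to 11 lower with Aβ42, 0 to 2 and 9 to 28 with Aβ40, and 0 to 47 and 0 to 7 with Aβ42 against Aβ40, each highest without Aβ42 library 1. The controls gave 9 to 15 and 7 to 14, the Aβ42 difference 4 to 22 and 0 to 1, and the Aβ40 difference 1 to 6 and 0 to 2. Of 5928 values of named genes, 5203 stayed on the same side of the threshold (237 of these changed sign while not called), 597 lost the call, 128 gained it and 0 reversed. Joined symbols, chosen after seeing the data, left the counts within 1.5 times. Upper quartile factors moved the median of all genes to −0.105 in astrocytes with Aβ42, 0.21 for the Aβ42 difference and 0.17 for the Aβ40 difference. Deviations of libraries with the same number had r of −0.586 to 0.403 in astrocytes and −0.207 to 0.241 in microglia, over 0.1 in 2 of 9 and 1 of 9 pairs, so the block is the one paired analysis. Across numbers, astrocyte control 2 had r of 0.577 with Aβ42 library 3 and 0.535 with Aβ40 library 1. Between astrocyte Aβ42 library 3 and Aβ40 library 1 it was 0.567. A block by number does not model such pairs, and their part was not tested.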

Other observations

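Counts for other genes of mitochondrial upkeep stand beside these shares of all genes called higher and lower: 27.1% and 26.6% in microglia with Aβ42, 19.6% and 21.4% with Aβ40, 11.3% and 9.01% with Aβ42 against Aβ40, 16.5% and 20.4% in astrocytes with Aβ42, and 14.9% and 18.4% with Aβ40. Of 67 mitochondrial ribosome genes tested, 19 were called higher and 7 lower with Aβ42, 3 and 6 with Aβ40, and 11 and 0 with Aβ42 against Aβ40, where edgeR gave 25 at an unadjusted p under 0.05. In astrocytes 5 of 69 were higher and 2 lower with Aβ42, and 3 and 3 with Aβ40. Of the cytosolic ribosome genes, 20 of 81 were called higher and 0 lower with Aβ42 against Aβ40 in microglia, with 44 at an unadjusted p under 0.05. Against control, 11 were higher and 2 lower with Aβ42, and 1 higher and 11 lower with Aβ40. In astrocytes 0 of 80 were higher with either fibril, 12 were lower with Aβ42 and 17 with Aβ40, with 17 and 30 at an unadjusted p under 0.05. Of the protein import genes, 7 of 18 were higher and 1 lower with Aβ42 in microglia, 1 and 0 with Aβ40 (1 at an unadjusted p under 0.05), and in astrocytes 2 and 1 of 19, and 1 and 2.

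Among assembly factors of the chain, Cox17, a copper chaperone for complex IV, rose in microglia by 1.13 with Aβ42 (adjusted p 4.71e-05) and 0.93 with Aβ40, with 8 of 37 higher and 3 lower, and 3 and 3. In astrocytes Sco1, another copper chaperone, rose by 0.95 with Aβ42 and 0.68 with Aβ40, while Lyrm7, needed for complex III, had log2 fold changes of −1.46 and −1.29, with 6 of 40 genes higher and 6 lower, and 3 and 6. Of 11 ubiquinone genes, 4 were higher and 0 lower in microglia with Aβ42 (4 at an unadjusted p under 0.05), 2 and 3 with Aβ40, and 1 and 1 in astrocytes with each fibril. Coq10b rose by 1.53 and 1.51 in microglia and by 0.9956 and 0.74 in astrocytes. Of 11 carriers, 6 were higher and 2 lower with Aβ42 in microglia, 3 and 3 with Aβ40, 1 and 1 in astrocytes with Aβ42, and 0 and 1 with Aβ40 (3 at an unadjusted p under 0.05). Slc25a10, the dicarboxylate carrier, rose by 0.91 and 0.66 in microglia.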
